A study of Homo sapiens with 6 samples.

Results

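The 58 genes described here encode splicing factors and the CLK kinases, and they were measured among 19775 genes in SUM159 oncospheres. They were chosen by gene symbol alone: 4 CLK kinases (CLK), 10 SR proteins (SRSF), 21 genes named for heterogeneous nuclear ribonucleoproteins (HNRNP), 12 named for proteins of the small nuclear ribonucleoproteins (SNRP), 9 subunits of the splicing factor 3 complexes (SF3) and the 2 subunits of U2AF. Among the 58, the rule by symbol took in HNRNPA3P1, a pseudogene, and HNRNPD-DT and SNRPF-DT, non-coding transcripts that start beside HNRNPD and SNRPF. Together the 58 genes had 173 probe sets, groups of short probes that each read one stretch of a transcript. Unless another is named, values of a gene come from its brightest probe set, judged by the mean of all 6 arrays. SRSF2, SRSF9 and HNRNPH2 were read only by probe sets annotated to several genes and were not included.

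SUM159 is an established human breast cancer cell line. Its cells carried the lentiviral vector pLVX-puro with human SCGB3A1, which encodes a secreted protein of the secretoglobin family, or the same vector empty, with 3 arrays in each group. Both groups were selected for 7 days in 2 µg/ml puromycin and then spent 5 days as oncospheres, which are floating clusters of cells, seeded in HuMEC medium at 12500 cells/ml. From each sample 100 ng of total RNA was read on an Affymetrix array that probes mainly the 3' ends of transcripts. The sample titles call the arrays of a group biological replicates. Whether these came from separate transductions is not stated. The p-values therefore reflect only how far these samples scatter, which may leave out differences between transductions. The study asked how breast cancer cells respond to SCGB3A1.

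Splicing removes introns from pre-mRNA. The spliceosome is built from small nuclear ribonucleoproteins, each a small nuclear RNA with proteins of its own and, in most, a ring of Sm proteins. U2AF and the SF3 complexes mark the 3' end of the intron, SR proteins mostly favour the use of an exon, and many HNRNP proteins oppose it. CLK kinases phosphorylate SR proteins in the nucleus, and many genes of these families control their own mRNA through alternative exons that lead to its decay.

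Values are on the log2 scale after robust multiarray average (RMA) normalisation, so a difference of 1 is a doubling, and levels of different probe sets cannot be compared. The normalisation gives every array one distribution, so a change in total RNA per cell would not be seen, and in bulk samples fewer cells of a type and less RNA per cell cannot be told apart. Over the brightest probe set of each gene, the second empty vector replicate correlated with the others at 0.991 to 0.994. The other 5 arrays correlated at 0.994 to 0.997 among themselves. SCGB3A1 itself read 6.60, 6.92 and 6.71 in the arrays labelled SCGB3A1, against 6.80, 6.89 and 7.05 in the empty vector arrays. The groups overlapped (log2 fold change -0.17 ± 0.096 SE, limma, adjusted p = 0.83), and whether this probe set covers the vector's insert is unknown here. All directions below therefore hold for the arrays as labelled. In the arrays labelled SCGB3A1, whose medians over all probe sets were 6.92, the 5 markers of a mesenchymal line averaged 10.9 (AXL) to 14.4 (VIM). The 5 luminal markers averaged 6.38 (PGR) to 8.05 (GATA3), and the 6 markers of other cell types 6.05 (CDH5) to 8.26 (PECAM1). Since levels of different probe sets cannot be compared, these values do not show which markers were absent. Of the marker genes of the line, of luminal epithelium and of other cell types, 0 of 16 passed an unadjusted p of 0.05 in limma.

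No difference between the groups was detected for the splicing genes. By limma with Benjamini-Hochberg adjustment over 54613 probe sets, 0 of 58 members passed an adjusted p of 0.05, where 0.0303% of all genes did, and the smallest adjusted p was 0.78. At an unadjusted p of 0.05, 1 of 58 members passed, HNRNPR, which was lower in the arrays labelled SCGB3A1, where 6.82% of all genes passed in either direction, 3.93% higher and 2.89% lower. The study's own thresholds for listing a gene, a log2 fold change beyond 0.5 with p under 0.05 and adjusted p under 0.25, took 0 of 58 members and 0.0607% of all genes.

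How large a difference the arrays could have missed is given by the intervals. The 58 log2 fold changes ran from -0.23 (HNRNPR) to 0.16 (CLK2), with 28 above 0 and 30 below. Their median was -0.0034, beside 0.011 over all genes, and their median size without sign was 0.058, beside 0.066. The 95% intervals of all 58 members lay within 0.5 on either side of 0, a 1.41-fold difference, as did those of 98.3% of all genes. The lowest bound was -0.42, for both HNRNPR and SNRPE, and the highest 0.37, for CLK2. The median standard error was 0.080 for members and 0.081 for all genes. Limma draws standard errors towards a common value, so these could not lie far apart. The SD within groups, which is not drawn in this way, had a median of 0.093 for members and 0.097 for all genes.

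**Figure D1:**
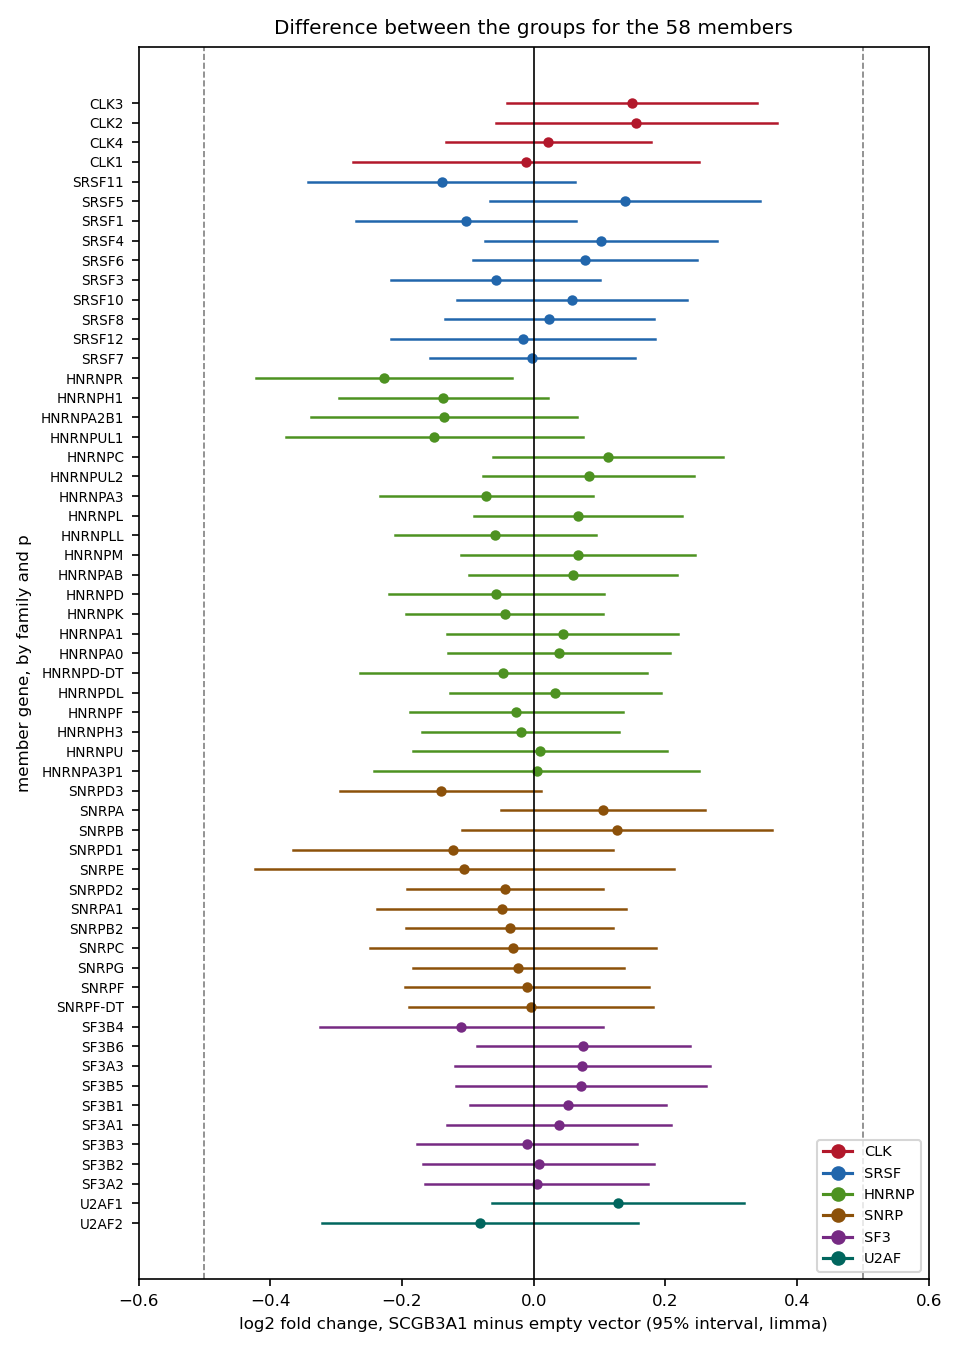
Log2 fold change of each of the 58 members, arrays labelled SCGB3A1 minus empty vector arrays (x axis), with its 95% interval from limma, coloured by family and ordered within a family by p. The intervals all lie between the dashed lines at -0.5 and 0.5, and the interval of HNRNPR alone leaves out 0.

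By family, the median log2 fold change was 0.086 for the CLK kinases, 0.011 for the SR proteins, -0.020 for the HNRNP genes, -0.034 for the SNRP genes, 0.038 for the SF3 subunits and 0.023 for U2AF. Of the SNRP genes 10 of 12 lay below 0, and of the SF3 subunits 7 of 9 lay above 0. Of all 19775 genes, 10728 lay above 0 and 9047 below. The counted values came as near to 0 as -0.0046 in SNRP and 0.0046 in SF3, and the counts were not tested. With each gene set to its own mean over the 6 arrays, the SNRP genes had medians of -0.024, -0.034 and -0.0067 in the arrays labelled SCGB3A1, against 0.0006, 0.0075 and 0.013 in the empty vector arrays. The CLK kinases had medians of 0.066, 0.072 and -0.0014 in the arrays labelled SCGB3A1, against -0.077, -0.12 and -0.018 in the empty vector arrays. In these 2 families the groups did not overlap and in the other 4 they did, and no test was made of a family median. Without empty vector replicate 2 the median log2 fold change was -0.0099 for SF3 and -0.014 for SNRP. Groups that did not overlap were found for 6 members, 3 higher (HNRNPC, SNRPA and SF3B1) and 3 lower (HNRNPH1, SNRPD3 and SNRPD2), where 12.3% of all genes were separated in this way, 7.09% higher and 5.24% lower. Such members numbered 22 without SCGB3A1 replicate 3, or 37.9% against 28.5% of all genes, 14 without empty vector replicate 1, or 24.1% against 22.1%, and 11 without empty vector replicate 3, or 19.0% against 21.3%. They numbered 8, 9 and 8, or 13.8%, 15.5% and 13.8%, without SCGB3A1 replicate 1, SCGB3A1 replicate 2 and empty vector replicate 2, against 19.9%, 19.5% and 22.5% of all genes.

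The promoters show one sequence feature that the choice by symbol did not use. In RefSeq (GRCh38.p14), 54 of the 58 members had 76 promoters between them, and the 250 bases before each start were searched on both strands. The letters CCGGAAG, a core that ETS transcription factors bind, were found on either strand in 27.6% of the member promoters, against 10.8% of the 21490 promoters of all measured genes. Other elements, none of which contains another of those searched, were about as frequent in members as in all promoters: the GC box GGGCGG (56.6% against 54.0%), CCAAT (35.5% against 32.4%) and TATAAA (9.21% against 8.34%). The ETS letters were present in 6 of 8 SF3 genes and 7 of 11 SNRP genes, in 3 of 19 HNRNP genes, 2 of 10 SR protein genes and 1 of 2 U2AF genes, and in 0 of 4 CLK genes. The 19 genes that held them had a median log2 fold change of -0.026 and the others of 0.010. Families were represented unequally in this split. Holders and others were at -0.037 and -0.0071 in SNRP, 0.023 and 0.062 in SF3, and -0.057 and -0.0046 in HNRNP. In U2AF they were at -0.081 and 0.13, with 1 gene each. The SR proteins went the other way, at 0.12 and -0.0091. These differences were not tested. The last 100 bases before the start are shown for 1 gene from each of 4 families, on the strand of the gene, with the ETS letters in capitals.
U2AF2, chr19:55654935-55655034, plus strand: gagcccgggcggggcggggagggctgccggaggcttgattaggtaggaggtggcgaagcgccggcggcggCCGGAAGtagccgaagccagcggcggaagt
SRSF5, chr14:69767042-69767141, plus strand: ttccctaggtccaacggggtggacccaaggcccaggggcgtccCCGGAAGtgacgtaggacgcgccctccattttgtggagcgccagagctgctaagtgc
SNRPB, chr20:2470790-2470889, minus strand: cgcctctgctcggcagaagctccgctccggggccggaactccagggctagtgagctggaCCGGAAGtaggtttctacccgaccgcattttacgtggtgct
SF3B4, chr1:149927804-149927903, minus strand: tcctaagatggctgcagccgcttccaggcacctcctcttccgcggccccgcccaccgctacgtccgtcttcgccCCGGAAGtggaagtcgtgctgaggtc
The letters begin 30 bases before the start in U2AF2, 57 in SRSF5, 41 in SNRPB and 26 in SF3B4. A match is a description of the sequence and was not tested as a binding site.

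CLK kinases gave the highest family median, and CLK2 and CLK3 lay highest among them. CLK2 read 9.02, 9.04 and 8.76 in the arrays labelled SCGB3A1, against 8.95, 8.66 and 8.75 in the empty vector arrays, with SCGB3A1 replicates 1 and 2 highest and the groups overlapping. The difference was 0.16 ± 0.098 (SE, 95% interval -0.057 to 0.37, limma, adjusted p = 0.85). It was 0.24 without SCGB3A1 replicate 3 (unadjusted p = 0.028 by limma), 0.24 without empty vector replicate 1 (unadjusted p = 0.037) and 0.092 without empty vector replicate 2. CLK3 read 8.61, 8.68 and 8.59 in the arrays labelled SCGB3A1, against 8.42, 8.35 and 8.66 in the empty vector arrays. Empty vector replicate 3 lay among the SCGB3A1 arrays, so these groups overlapped too (0.15 ± 0.087, adjusted p = 0.84), and the other probe set of CLK3 gave 0.027. The difference was 0.24 without empty vector replicate 3 (unadjusted p = 0.015 by limma) and 0.088 without empty vector replicate 2, and the smallest adjusted p of either kinase with an array left out was 0.52.

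CLK4 was the steadiest of the kinases, at 9.39, 9.32 and 9.28 in the arrays labelled SCGB3A1 and 9.30, 9.27 and 9.36 in the empty vector arrays (0.022 ± 0.071, 95% interval -0.13 to 0.18, adjusted p = 0.97). Its 4 probe sets lay between -0.028 and 0.036. CLK1, whose own retained introns and skipped exon control its level, varied most. It read 8.72, 8.98 and 9.17 in the arrays labelled SCGB3A1, against 8.82, 9.19 and 8.89 in the empty vector arrays, so that each group held both a low and a high array. The difference was -0.012 ± 0.12 (adjusted p = 0.99), and it was 0.11 without SCGB3A1 replicate 1 and 0.10 without empty vector replicate 2.

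**Figure D2:**
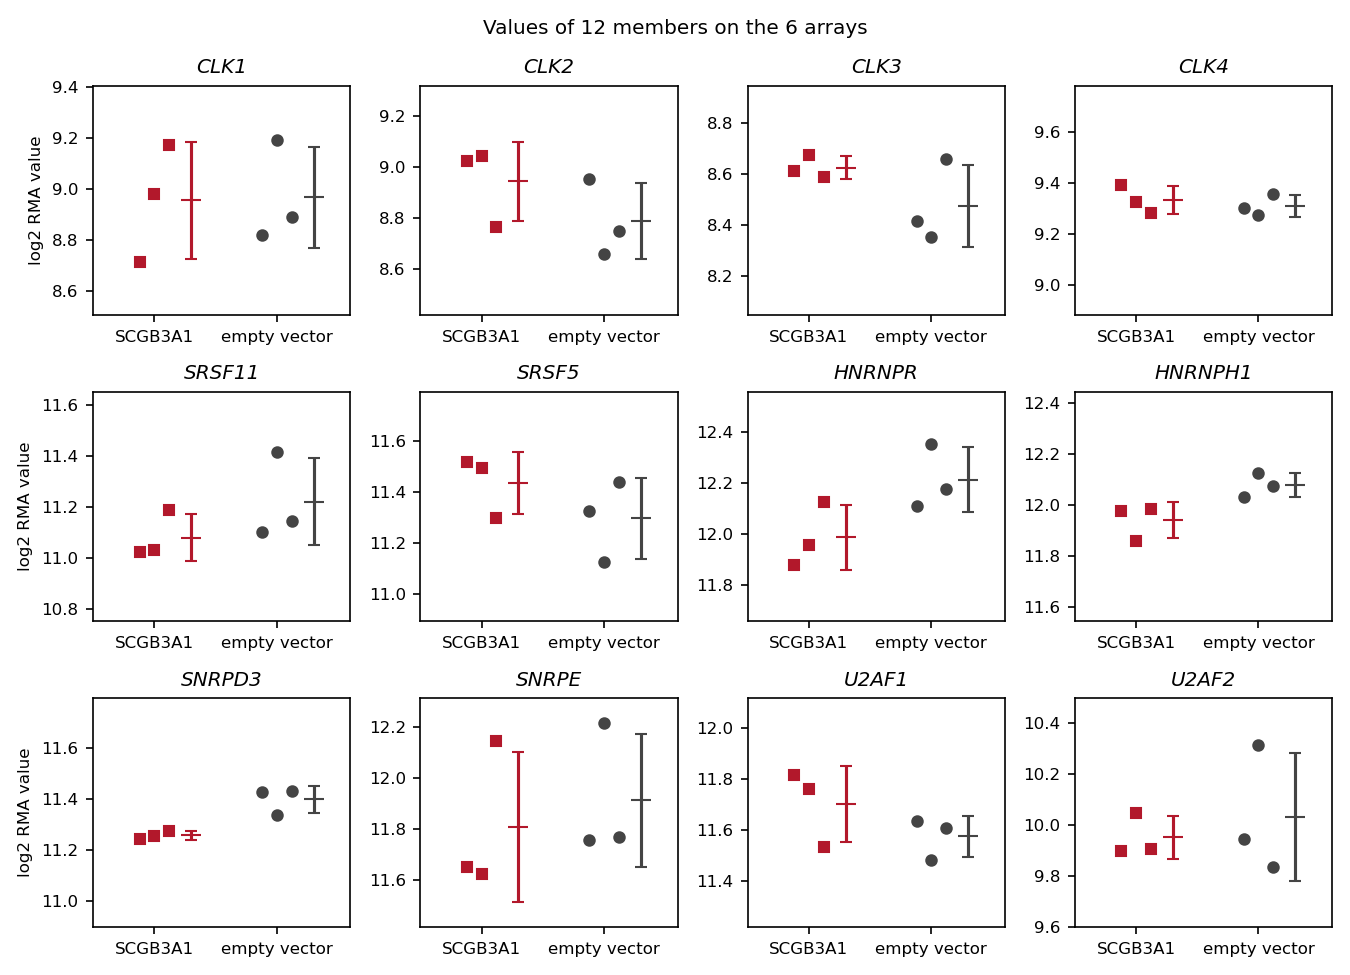
Log2 RMA value (y axis) of 12 members on each array, with the 3 arrays labelled SCGB3A1 as red squares and the 3 empty vector arrays as grey circles, and the mean with SD beside each group. All panels span the same number of log2 units, and only HNRNPH1 and SNRPD3 have groups that do not overlap.

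Among the SR proteins, SRSF11 and SRSF5 lay farthest from 0, on opposite sides. SRSF11 read 11.02, 11.03 and 11.19 in the arrays labelled SCGB3A1, against 11.10, 11.41 and 11.14 in the empty vector arrays (-0.14 ± 0.093, limma, adjusted p = 0.86). The highest array was empty vector replicate 2, and without it the difference was -0.042. SRSF5 read 11.52, 11.50 and 11.30 in the arrays labelled SCGB3A1, against 11.33, 11.13 and 11.44 in the empty vector arrays (0.14 ± 0.094, adjusted p = 0.86). Here the same array was the lowest, and without it the difference was 0.054. SRSF1, which promotes the use of exons, averaged 11.88 ± 0.079 in the arrays labelled SCGB3A1 and 11.98 ± 0.078 in the empty vector arrays (SD, n = 3 each). SRSF4, one of the larger SR proteins, averaged 10.13 ± 0.10 in the arrays labelled SCGB3A1 and 10.02 ± 0.087 in the empty vector arrays, a difference of 0.10, whereas its other 4 probe sets all lay below 0.

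HNRNPR, an RNA-binding protein of the HNRNP family, was the member with the smallest p. It read 11.88, 11.96 and 12.12 in the arrays labelled SCGB3A1, against 12.11, 12.35 and 12.18 in the empty vector arrays. SCGB3A1 replicate 3 lay just above the lowest empty vector array, so the groups overlapped. The log2 fold change was -0.23 ± 0.090 (SE, 95% interval -0.42 to -0.032), with an unadjusted p of 0.026 and an adjusted p of 0.78 by limma. It depended on single arrays and on the probe set: the unadjusted p was 0.11 without SCGB3A1 replicate 1, 0.071 without SCGB3A1 replicate 2 and 0.10 without empty vector replicate 2, and the other probe sets of HNRNPR gave -0.012 and 0.0096. The count of members past an unadjusted p of 0.05 was 0 without SCGB3A1 replicate 1 or 2 and 3 without SCGB3A1 replicate 3, empty vector replicate 1 or empty vector replicate 3, or 5.17% of members, where 9.91%, 7.09% and 6.37% of all genes passed. Without empty vector replicate 2 it was 1, but that member was SNRPD3 (unadjusted p = 0.041 by limma).

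Other HNRNP genes differed less. HNRNPH1, which binds runs of guanines, read 11.98, 11.86 and 11.98 in the arrays labelled SCGB3A1, against 12.03, 12.13 and 12.07 in the empty vector arrays. All 3 SCGB3A1 arrays lay below all 3 empty vector arrays (-0.14 ± 0.073, adjusted p = 0.83), and its 4 probe sets ran from -0.15 to 0.079. HNRNPA2B1, a relative of HNRNPA1 that also acts in RNA transport, averaged 12.35 ± 0.12 in the arrays labelled SCGB3A1 and 12.49 ± 0.15 in the empty vector arrays, while its probe set 225932_s_at had non-overlapping groups in the opposite direction, with a difference of 0.12. HNRNPUL1, a relative of the nuclear matrix protein HNRNPU, gave -0.15 ± 0.10 (adjusted p = 0.86).

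In the SNRP family, SNRPD3, a protein of the Sm ring, had the smallest p. It read 11.24, 11.26 and 11.28 in the arrays labelled SCGB3A1, against 11.43, 11.34 and 11.43 in the empty vector arrays. The arrays of each group lay close together and the groups did not overlap, at a difference of -0.14 ± 0.070 (95% interval -0.29 to 0.011, limma, adjusted p = 0.82). SNRPB, at 0.13 ± 0.11, was the only Sm ring protein among the members above 0, and it was -0.0011 without empty vector replicate 2. SNRPD1 gave -0.12 ± 0.11 and SNRPE -0.11 ± 0.15. SNRPB, SNRPD1 and SNRPE each had an adjusted p of 0.89 or more by limma. The remaining ring proteins lay between -0.043 and -0.0095. SNRPE read 11.65, 11.62 and 12.15 in the arrays labelled SCGB3A1, against 11.76, 12.21 and 11.77 in the empty vector arrays. Its high arrays were SCGB3A1 replicate 3 and empty vector replicate 2, one in each group. SNRPA, which binds the RNA of the U1 particle, gave 0.11 ± 0.071 (adjusted p = 0.86) with groups that did not overlap.

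SF3 subunits, which hold the U2 ribonucleoprotein at the branch point, stayed within 0.11 of 0 on the brightest probe set of each gene. On their other probe sets the difference farthest from 0 was -0.18. SF3B4 gave -0.11 ± 0.099, SF3B6, which touches the branch point adenosine, 0.075 ± 0.074, SF3A3 0.074 ± 0.089 and SF3B5 0.072 ± 0.087, with adjusted p of 0.90 to 0.92 by limma. SF3B4 was -0.014 and SF3B5 -0.0070 without empty vector replicate 2. SF3B1, the largest subunit, read 11.93, 11.92 and 11.93 in the arrays labelled SCGB3A1, against 11.90, 11.84 and 11.88 in the empty vector arrays. These groups were separate, yet the difference was only 0.053 ± 0.068 (95% interval -0.096 to 0.20). The other probe sets of SF3B1 all lay below 0, from -0.17 to -0.018, and none of them had separate groups.

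U2AF1, which reads the AG at the end of the intron, and U2AF2, which binds the pyrimidine tract before it, form one dimer. U2AF1 read 11.82, 11.76 and 11.53 in the arrays labelled SCGB3A1, against 11.64, 11.48 and 11.61 in the empty vector arrays (0.13 ± 0.088, adjusted p = 0.86). SCGB3A1 replicates 1 and 2 were the highest arrays and replicate 3 fell among the empty vector arrays, and the difference was 0.072 without SCGB3A1 replicate 1, 0.082 without empty vector replicate 2 and 0.21 without SCGB3A1 replicate 3 (unadjusted p = 0.028 by limma). U2AF2 read 9.90, 10.05 and 9.91 in the arrays labelled SCGB3A1, against 9.95, 10.31 and 9.83 in the empty vector arrays (-0.081 ± 0.11, adjusted p = 0.93). The extreme one was again empty vector replicate 2, and without it the difference was 0.060.

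One array stood out among the members. Empty vector replicate 2 held the highest or the lowest value of 43 of 58 members, highest for 19 and lowest for 24. That is 74.1% of members, against 48.6% of all genes and 59.0% of the 3205 genes at or above the lower quartile of the members' levels. SCGB3A1 replicate 3 was at an extreme for 12.1% of members, against 28.9% of all genes. The gap between empty vector replicate 2 and the mean of the other 5 arrays was 0.42 for SNRPE, 0.39 for U2AF2, 0.33 for SNRPD1, 0.32 for SRSF11 and 0.30 for HNRNPR, and it was -0.38 for SNRPB and -0.29 for SRSF5. These genes were picked for the size of the gap after the values were seen. The median gap without sign over the members was 0.14 for this array and 0.051 to 0.085 for the others, beside 0.10 and 0.070 to 0.086 over all genes. Without this array the log2 fold change was -0.0011 for SNRPB, -0.015 for SNRPD1, -0.048 for HNRNPA2B1, -0.076 for HNRNPUL1 and 0.0041 for SF3A3. Not all members came nearer to 0. SNRPD3 went from -0.14 with all arrays to -0.17 without this one, and U2AF2 changed sign, from -0.081 to 0.060. These examples were picked after the values were seen. What set this array apart was not tested.

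**Figure D3:**
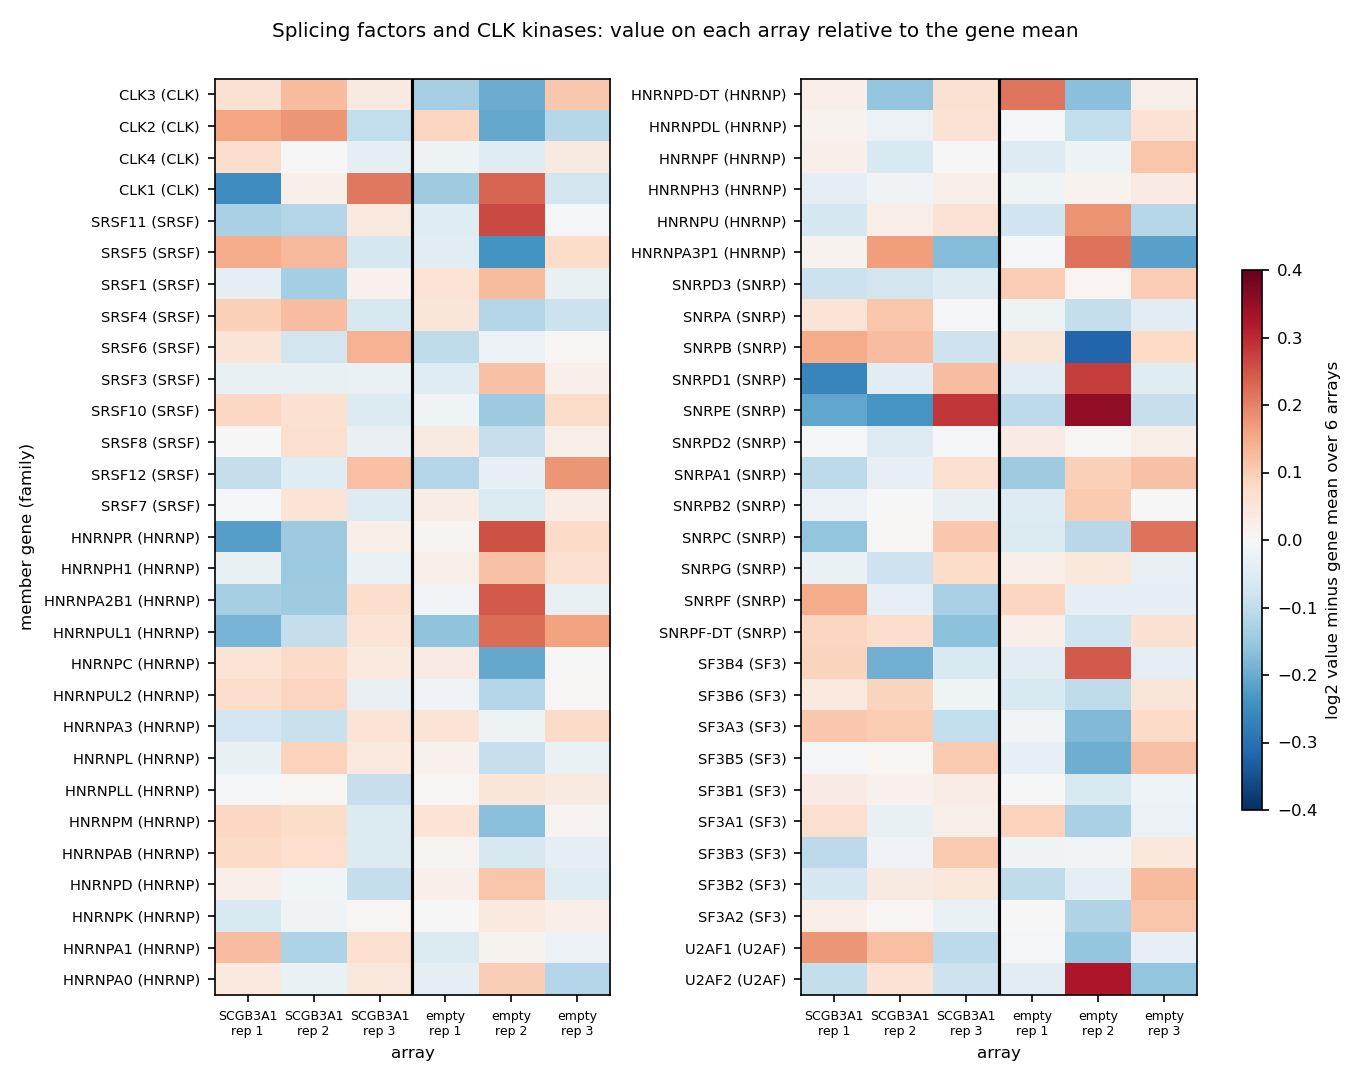
Log2 value on each array minus the gene's mean over the 6 arrays for the 58 members (rows, with the family in brackets), red for above the mean and blue for below it, with the arrays labelled SCGB3A1 left of the black line and the empty vector arrays right of it. The strongest colours belong to empty vector replicate 2 in both directions, such as SNRPE and U2AF2 in red and SNRPB in blue.

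**Figure D4:**
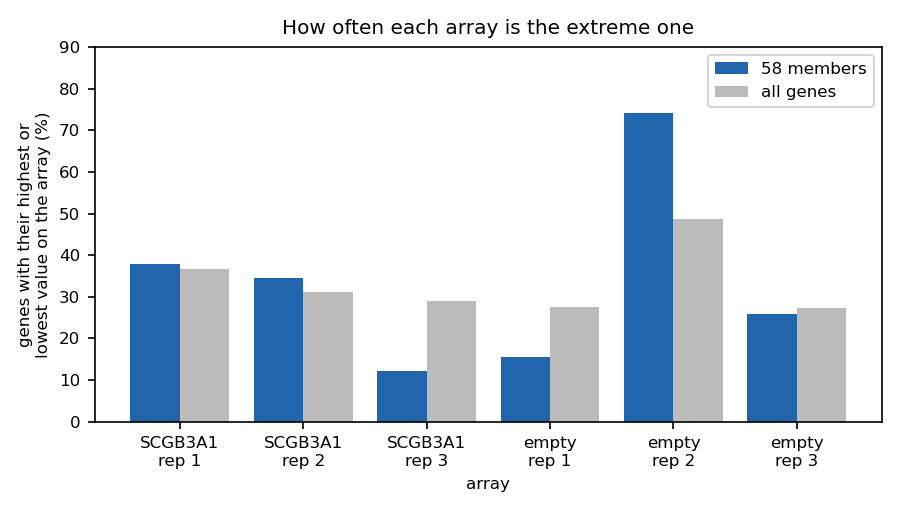
Share of genes (y axis, percent) whose highest or lowest value of the 6 lies on each array (x axis), for the 58 members in blue and all 19775 genes in grey. Empty vector replicate 2 stands at 74.1% for members and 48.6% for all genes, and SCGB3A1 replicate 3 at 12.1% and 28.9%.

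The array was not simply high or low for a gene. Of the 28 members with 3 or more probe sets, 19 had empty vector replicate 2 highest on at least 1 probe set and lowest on at least 1 other, or 67.9%, against 31.7% of all such genes and 37.9% when all genes were weighted to the members' numbers of probe sets. In HNRNPD, which binds AU-rich elements of mRNA, it was highest on 5 and lowest on 3 of 9 probe sets. In HNRNPC, which binds uridine tracts, it was highest on 3 and lowest on 2 of 7. Over all 173 member probe sets it was at an extreme on 60.1%, against 43.7% of the 54613.

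Probe sets of one gene often went in different directions between the groups, in the splicing genes as in all genes. Of the 28 members with 3 or more probe sets, 3 had a single sign throughout, or 10.7%, against 22.4% of all such genes and 16.7% after weighting to the members' numbers of probe sets. The median range of log2 fold changes within a gene was 0.195 for these members and 0.194 for all genes after the same weighting. With exactly 2 probe sets the order turned, and 12 of 14 members had the same sign on both, or 85.7%, against 53.8% of all such genes. The ranges ran from 0.032 in HNRNPA0 to 0.36 in SRSF1.

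At an unadjusted p of 0.05, 5 of 173 member probe sets passed in limma, or 2.89%, where 6.20% of all probe sets did, and 0 passed an adjusted p of 0.05, where 0.0183% of all did. Besides that of HNRNPR they belonged to the 4 members with the widest ranges. HNRNPA1, which promotes exon skipping, had the smallest p. Its probe set 222040_at read 7.96, 7.73 and 7.86 in the arrays labelled SCGB3A1, against 7.52, 7.58 and 7.64 in the empty vector arrays. The groups did not overlap (0.27 ± 0.080, adjusted p = 0.71), whereas its brighter probe set gave 0.044 and the third -0.040.

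SRSF1 showed the opposite on one dim probe set. Probe set 201741_x_at read 6.93, 6.92 and 6.98 in the arrays labelled SCGB3A1, against 7.10, 7.13 and 7.26 in the empty vector arrays. These groups were apart (-0.22 ± 0.074, adjusted p = 0.74), while 5 of its 8 probe sets lay above 0. HNRNPC read 7.09, 7.18 and 6.97 on 235500_at in the arrays labelled SCGB3A1, against 6.90, 6.69 and 6.95 in the empty vector arrays (0.23 ± 0.089, adjusted p = 0.78), with no overlap, and its other 6 probe sets ran from -0.12 to 0.11. HNRNPD read 8.65, 8.58 and 8.77 on 221480_at in the arrays labelled SCGB3A1, against 8.81, 8.97 and 8.85 in the empty vector arrays (-0.21 ± 0.080, adjusted p = 0.78), also with no overlap, and its other 8 ran from -0.099 to 0.11. Within each of these genes the remaining probe sets therefore lay on both sides of 0.

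Whether a probe set moved apart from its gene was tested directly, by fitting limma to each probe set minus the mean of the gene's other probe sets. Of 157 member probe sets in that fit 2 passed an unadjusted p of 0.05, or 1.27%, where 4.79% of all 31839 did. They were 201741_x_at of SRSF1 (-0.26 ± 0.090, adjusted p = 0.93) and 222040_at of HNRNPA1 (0.27 ± 0.10, adjusted p = 0.93). None of the member or other probe sets passed an adjusted p of 0.05, and the smallest adjusted p over all 31839 was 0.246, with 1526 past an unadjusted p of 0.05. Which exons or 3' ends each probe set reads was not analysed here, so a change of isoform cannot be read from these values.

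**Figure D5:**
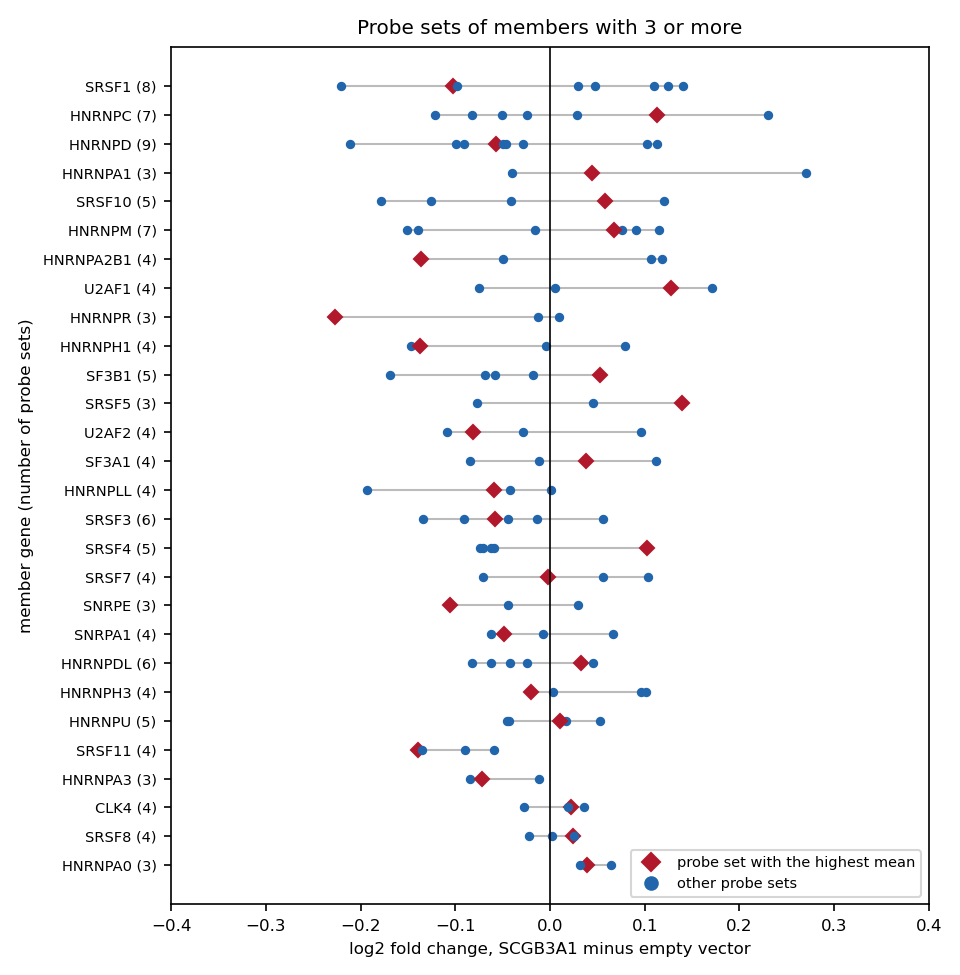
Log2 fold change, arrays labelled SCGB3A1 minus empty vector arrays (x axis), of each probe set of the 28 members with 3 or more (rows, number of probe sets in brackets, widest range at the top), with the brightest probe set as a red diamond and the others as blue circles. SRSF1, HNRNPC, HNRNPD and HNRNPA1 span the most, and most rows lie on both sides of 0.

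Other genes of the pathway were followed in 6 lists, with 101 of 112 genes measured. By limma 0 of these 101 passed an adjusted p of 0.05 on the brightest probe set, and 4 passed an unadjusted p of 0.05, or 3.96%, where 6.82% of all genes did. Among 21 SR-related proteins 1 was higher and 1 lower, with a median log2 fold change of -0.046. LUC7L, a U1-associated protein, read 9.34, 9.37 and 9.34 in the arrays labelled SCGB3A1, against 9.09, 9.07 and 9.31 in the empty vector arrays (0.19 ± 0.081, adjusted p = 0.78), with no overlap.

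NKTR, a cyclophilin-related protein with an arginine-serine-rich region, had the smallest p of these 101 genes, and it was in its list with this result known. It read 9.26, 9.21 and 9.32 in the arrays labelled SCGB3A1, against 9.81, 9.94 and 9.68 in the empty vector arrays. The groups lay well apart (-0.54 ± 0.082, adjusted p = 0.083), and on 215338_s_at the difference was -0.58 ± 0.068 (adjusted p = 0.014). Both values lay below the intervals of all 58 members, but the other 6 probe sets of NKTR, which ran from -0.25 to 0.038, did not.

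SRPK1, the kinase that phosphorylates SR proteins in the cytoplasm, was the 1 of 10 SR protein kinase and phosphatase genes past an unadjusted p of 0.05 (list median -0.0020). It read 9.54, 9.65 and 9.83 in the arrays labelled SCGB3A1, against 9.96, 10.41 and 9.83 in the empty vector arrays. Replicate 2 of the empty vector was far above the rest and replicate 3 lay just below the highest SCGB3A1 array (-0.39 ± 0.13, adjusted p = 0.74), and the other SRPK1 probe set gave 0.030. PPP1CA, a catalytic subunit of the phosphatase that acts on SR proteins, gave 0.15 ± 0.074 (adjusted p = 0.82) with no overlap.

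In the U4/U6.U5 particle and catalytic core, 1 of 28 genes passed an unadjusted p of 0.05, DDX23, a helicase of the U5 particle (0.21 ± 0.093, adjusted p = 0.79), and PRPF19, a ubiquitin ligase of the active spliceosome, followed with 0.18 ± 0.10 (list median 0.0088). In the remaining lists 0 genes passed. Among 15 U1 and early complex genes (median -0.026) the smallest p belonged to PHF5A, an SF3B partner, at 0.12 ± 0.074 and SMNDC1, a U2-associated factor, at -0.12 ± 0.084. Among 18 LSM and SMN complex genes (median 0.053) they belonged to CLNS1A, an Sm protein chaperone, at -0.14 ± 0.072 and GEMIN2, an SMN partner, at 0.11 ± 0.071. Among 9 exon junction complex and nonsense-mediated decay genes (median 0.014) they belonged to SMG9 at 0.18 ± 0.084 and SMG8 at 0.16 ± 0.080, both partners of the decay kinase SMG1.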

How the data were processed

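The authors read RNA from 6 samples on Affymetrix U133 Plus 2.0 arrays and normalised them by robust multiarray average in Chipster 3.8.0, and they deposited log2 values, between 5.66 and 14.7. RMA draws dim probe sets towards a floor, which makes their fold changes too small. No detection calls were used, and the number of arrays limits the precision. Of 54675 probe sets, 62 controls were set aside. GEO's platform annotation gave 1 symbol for 41091, several for 1801 and none for 11721, checked against a RefSeq table (GRCh38.p14), which did not hold 42 symbols. All 6 sample columns were used and 0 were left out.

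Groups were compared with limma 3.58.1 (lmFit and eBayes, R 4.3.3), two-sided, without a replicate block, after the 2-group empirical Bayes test of the study's methods. The fits were tested on simulated data. Genes named were CLK1 to CLK4 and both U2AF genes, the 4 smallest p in each other family with any past an unadjusted p of 0.05, the 2 smallest p in each list, the 4 widest ranges among probe sets, SCGB3A1, and, where said or where a count of 5 or fewer is given, genes chosen after their values were seen. SF3B1, SNRPD2 and HNRNPC were named for groups that did not overlap. Members and lists were chosen with earlier results of these data known. Alternatives left out 1 array at a time, centred or quantile normalised again, let the variance follow intensity, weighted the arrays, added the replicate number as a block, and removed dim or cross-hybridising probe sets. Others used the mean of a gene's probe sets, and adjustment over 1 probe set per gene.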

Additional observations from a re-analysis of the deposited data

How the results depend on the processing

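The counts of members past an adjusted p of 0.05 and past the listing thresholds stayed at 0 under every alternative run, as did the count of probe sets that differed from their gene's others. Members past an unadjusted p of 0.05 (1 of 58 in limma as reported) numbered 3 with an intensity trend and 2 with array weights. They numbered 2 of the 46 members left without probe sets named _x_at or _s_at. The share of all genes was not worked out for these settings. With 1 array left out they numbered 0 to 3, or 0% to 5.17%, where 4.54% to 9.91% of all genes passed. Members whose groups did not overlap numbered 8 to 22 with 1 array left out, or 13.8% to 37.9%, against 19.5% to 28.5% of all genes. The other splicing genes past an unadjusted p of 0.05 then numbered 3 to 9 of 101, where 4.54% to 9.91% of all genes passed. The 9 came without SCGB3A1 replicate 3, the setting in which 9.91% of all genes passed. Without probe sets named _x_at or _s_at, 46 members remained, so the medians rest on fewer genes. CLK1 and CLK2 had only such a probe set and dropped out, and the CLK median of 0.023 is that of CLK3 and CLK4 alone. The other family medians were -0.030 for SRSF, -0.042 for HNRNP and -0.023 for SNRP. With the mean of a gene's probe sets they were -0.0018 for HNRNP and -0.022 for SNRP. With 1 array left out they ran from -0.016 to 0.054 for SRSF, -0.042 to -0.0013 for HNRNP and -0.059 to -0.014 for SNRP. Deviations from the group means correlated at 0.18, -0.19 and -0.12 for replicates 1, 2 and 3. The deviations of a gene sum to 0 within a group, so these values depend on each other. They cannot decide whether the replicate numbers pair the samples. With the replicate number as a block, 1 member passed an unadjusted p of 0.05 and 0 an adjusted p, and HNRNPR was -0.23 (adjusted p = 0.85). Of 324 alternative values for 22 named members, 311 kept their direction and their side of the adjusted threshold and 13 changed sign. An intensity trend, the replicate block and adjustment over 1 probe set per gene leave the log2 fold change as it was. Direction could therefore not change in those settings, and their values are among the 311. No value came near the threshold, the smallest adjusted p by limma being 0.45 for HNRNPR. CLK1 was 0.035 and U2AF2 0.0063 with array weights. SRSF1 was 0.0038, SRSF4 -0.033 and HNRNPA2B1 0.0096 with the mean of probe sets, and HNRNPR was 0.0096 and HNRNPA2B1 0.11 without _x_at and _s_at probe sets. With 1 array left out, CLK1 ran from -0.12 to 0.11, CLK4 from -0.0077 to 0.048, U2AF2 from -0.18 to 0.060, SF3B5 from -0.0070 to 0.15 and SNRPB from -0.0011 to 0.20. The cause of these shifts was not tested. SCGB3A1 stayed between -0.26 and -0.097.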
